A study of Homo sapiens with 183 samples.

Results

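The gene set described here holds the leucine-rich repeat receptors LGR4, LGR5 and LGR6 and genes of Wnt feedback and transcription: the membrane ubiquitin ligases RNF43 and ZNRF3, the inhibitors AXIN2 and NKD1, and the DNA-binding factors LEF1, TCF7 and TCF7L2. The members were chosen by name, without a threshold on measured values but with earlier results of these data known, and they are 10 of the 19875 genes listed in each of the 8 expression tables.

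Wnt ligands bind Frizzled receptors and the co-receptors LRP5 and LRP6, which lets beta-catenin enter the nucleus and act there with TCF and LEF factors. RNF43 and ZNRF3 remove Frizzled from the cell surface, and R-spondins bound to LGR4, LGR5 or LGR6 hold these ligases back. AXIN2, NKD1, RNF43, ZNRF3 and LGR5 are themselves targets of the pathway in the intestine, where LGR5 marks stem cells, and some pancreatic tumours that have lost RNF43 depend on Wnt ligand.

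Messenger RNA was sequenced in 183 libraries from 9 established human cancer lines. The pancreatic lines AsPC-1 and SUIT-2, which the study treats as classical models, T3M-4 and BxPC-3, which it treats as basal-like, and CFPAC-1 carried Cas9 and were collected on day 5 after a guide against KLF5, RUVBL1, RUVBL2, CHD4, SERPINB5, CDK1 or RPA3, or against the mouse Rosa26 locus (sgRosa) as control. KLF5 is a zinc-finger transcription factor, RUVBL1 and RUVBL2 are partner ATPases of chromatin and assembly complexes, CHD4 is a chromatin remodeller, SERPINB5 encodes the serpin maspin, and CDK1 and RPA3 are genes that dividing cells need. AsPC-1 and T3M-4 cells carrying an empty vector, the RUVBL1 variant A62T or the RUVBL2 variant dF109 by lentivirus received CB-6644, an inhibitor of RUVBL1 and RUVBL2, or its solvent DMSO for 24 h, as did the colorectal line T84, the melanoma line A375, the small cell lung cancer line H1048 and the rhabdomyosarcoma line RH30. Knockout libraries are described as biological replicates, in several experiments over a pair of guides for KLF5, RUVBL1, RUVBL2, SERPINB5 and Rosa26, but the labels give neither the guide nor the culture of a library, so p-values measure a spread between libraries in which guides and replicates are mixed. Each vector of AsPC-1 and T3M-4 has 1 DMSO library.

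Between 11292 and 14024 genes reached 1 TPM in a library, TPM being a level scaled to transcript length and to the library's total. Against sgRosa, the targeted transcript fell to between 27.1 and 44.8% in the RUVBL1 knockout, to between 29.1 and 43.0% in the RUVBL2 knockout, to between 37.1 and 82.4% in the RPA3 knockout and to 39.1% in the SERPINB5 knockout. CDK1 stood at 35.8 to 93.1% of control, KLF5 at 75.3 to 170.1% and CHD4 at 124%, so transcript level is no check of the libraries labelled sgKLF5 and sgCHD4. A set of 3 libraries correlated with their own group at a median r under 0.98 and stand apart: T3M-4 experiment 1 sgKLF5 library 2 (0.954), SUIT-2 sgRosa library 1 (0.969) and SUIT-2 sgKLF5 library 4 (0.975). Line markers were high where the labels call for them, with HNF4A and GATA6 in AsPC-1, KRT5 and TP63 in BxPC-3 and CDX2, CDH17 and VIL1 in T84. SOX10 was high in A375, MYOD1 in RH30 and POU2F3 and AVIL in H1048. There were exceptions. AsPC-1 also carried the intestinal genes CDH17 and VIL1, and GATA6 was higher in BxPC-3 than in AsPC-1. MLANA was low in A375 and TRPM5 was near 0 in H1048. The melanocytic marker MITF averaged 24.5 TPM in CFPAC-1 and 17.3 TPM in A375. AVIL averaged 31 TPM in RH30, and the muscle marker PAX3 10.2 TPM in A375.

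The transcription start sites of LGR6, RNF43 and TCF7 are shown because these members were lower in both AsPC-1 experiments with sgKLF5 and have an entry in the RefSeq promoter table (GRCh38.p14, 250 bases before to 50 after the start). Capitals mark CCNCNCCC, a GC-rich letter pattern of the kind KLF factors bind, found on either strand. LGR6 lies at chr1:202193549-202193848 on the plus strand and holds no match, RNF43 at chr17:58417485-58417784 on the minus strand with 3 matches, 2 of them overlapping, and TCF7 at chr5:134115363-134115662 on the plus strand with 2.
LGR6: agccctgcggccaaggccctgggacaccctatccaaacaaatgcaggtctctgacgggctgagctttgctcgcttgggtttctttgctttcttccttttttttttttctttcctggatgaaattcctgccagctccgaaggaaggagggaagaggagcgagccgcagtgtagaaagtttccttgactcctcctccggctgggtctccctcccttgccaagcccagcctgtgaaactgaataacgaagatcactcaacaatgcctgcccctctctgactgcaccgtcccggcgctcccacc
RNF43: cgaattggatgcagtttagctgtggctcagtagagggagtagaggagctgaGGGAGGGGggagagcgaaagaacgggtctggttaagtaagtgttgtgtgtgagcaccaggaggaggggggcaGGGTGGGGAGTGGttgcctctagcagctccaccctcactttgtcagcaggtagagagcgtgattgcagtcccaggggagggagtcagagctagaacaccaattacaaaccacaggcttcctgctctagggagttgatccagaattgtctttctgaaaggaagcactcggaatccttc
TCF7: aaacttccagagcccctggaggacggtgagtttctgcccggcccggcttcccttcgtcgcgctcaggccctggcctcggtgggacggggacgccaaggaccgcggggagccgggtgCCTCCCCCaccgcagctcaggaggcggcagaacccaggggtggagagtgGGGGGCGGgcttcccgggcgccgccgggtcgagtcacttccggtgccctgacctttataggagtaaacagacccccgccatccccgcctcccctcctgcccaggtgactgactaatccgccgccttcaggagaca
Of all 27305 promoters in the table, 55.1% hold CCNCNCCC, so a match is common, and it is a description of these letters only. TCF7L2 holds 9 matches, LEF1 holds 1 and LGR4 holds 0. The pattern CTTTGAT, which TCF and LEF factors bind, stands in 2.64% of promoters and in 0 of the 6 members with an entry, and LGR5, ZNRF3, AXIN2 and NKD1 have no entry.

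In control libraries each receptor had its own distribution over the lines. Levels are medians over sgRosa or DMSO libraries, set side by side although the tables were normalised separately, so no test was made between lines. LGR4, the most widely expressed receptor, had a median of 81.2 TPM in CFPAC-1, 67.9 in AsPC-1, 63.9 in T84, 44.1 in BxPC-3, 39.8 in SUIT-2, 28.9 in T3M-4, 26.7 in RH30, 25.3 in H1048 and 6.12 in A375. Neighbours in that order overlapped except T84 against BxPC-3 and H1048 against A375. In T3M-4 the controls ran from 8.28 TPM, in a DMSO library, to 33.1 TPM, so its place depends on the experiment. LGR5 had a median of 45.8 TPM in T84 and 25 in AsPC-1, with overlapping libraries, and was 0.922 in SUIT-2 and under 0.3 in the other 6 lines, all 4 RH30 controls being listed at 0. LGR6 was highest in AsPC-1, with a median of 100.1 TPM (lowest 73.2, highest 126) over 17 control libraries. It reached 8.43 in SUIT-2, 6.33 in BxPC-3, 5.34 in T84, 3.81 in CFPAC-1 and 2.12 in T3M-4, and stayed under 0.3 in A375, RH30 and H1048.

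The feedback genes were highest in T84. AXIN2, a scaffold of the complex that degrades beta-catenin, had a median of 76.1 TPM in T84 and of 4.54 in H1048, 3.18 in RH30, 3.0 in SUIT-2, 2.02 in AsPC-1, 1.71 in CFPAC-1, 0.470 in T3M-4, 0.222 in A375 and 0.0669 in BxPC-3. RNF43 had 78.5 TPM in T84, 16.7 in CFPAC-1, between 5.31 and 9.64 in the other pancreatic lines and under 0.3 in H1048, RH30 and A375. Both genes were separated in T84 from every other line. ZNRF3 spanned a narrower range, with 18.7 TPM in T84, 14.0 in H1048, 12.2 in RH30 and 7.47 in CFPAC-1, which did not overlap one another, and 3.16 to 4.38 elsewhere. NKD1, which binds Dishevelled, was low everywhere, with a median of 1.93 TPM in T84, 1.81 in H1048 and under 0.4 in the other 7 lines.

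Each line carried its own mix of TCF and LEF factors. TCF7L2 was expressed in all 9 lines, from 44.1 TPM in AsPC-1 and 36.2 in CFPAC-1 to 13.3 in H1048 and 6.80 in T3M-4. TCF7 led in T84 (41.3 TPM) and H1048 (41.1), which overlapped, followed by AsPC-1 (23.8) and SUIT-2 (13.2), and was lowest in RH30 (0.552). LEF1 was highest in A375 (19.9 TPM), RH30 (8.23), T84 (7.0) and SUIT-2 (4.65), with 2.26 in H1048 and under 1 TPM in the other 4 pancreatic lines. A member was therefore tested in a line only where its mean reached 1 TPM over the libraries fitted together. In bulk RNA, fewer cells of a kind and less RNA per cell cannot be told apart.

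**Figure D1:**
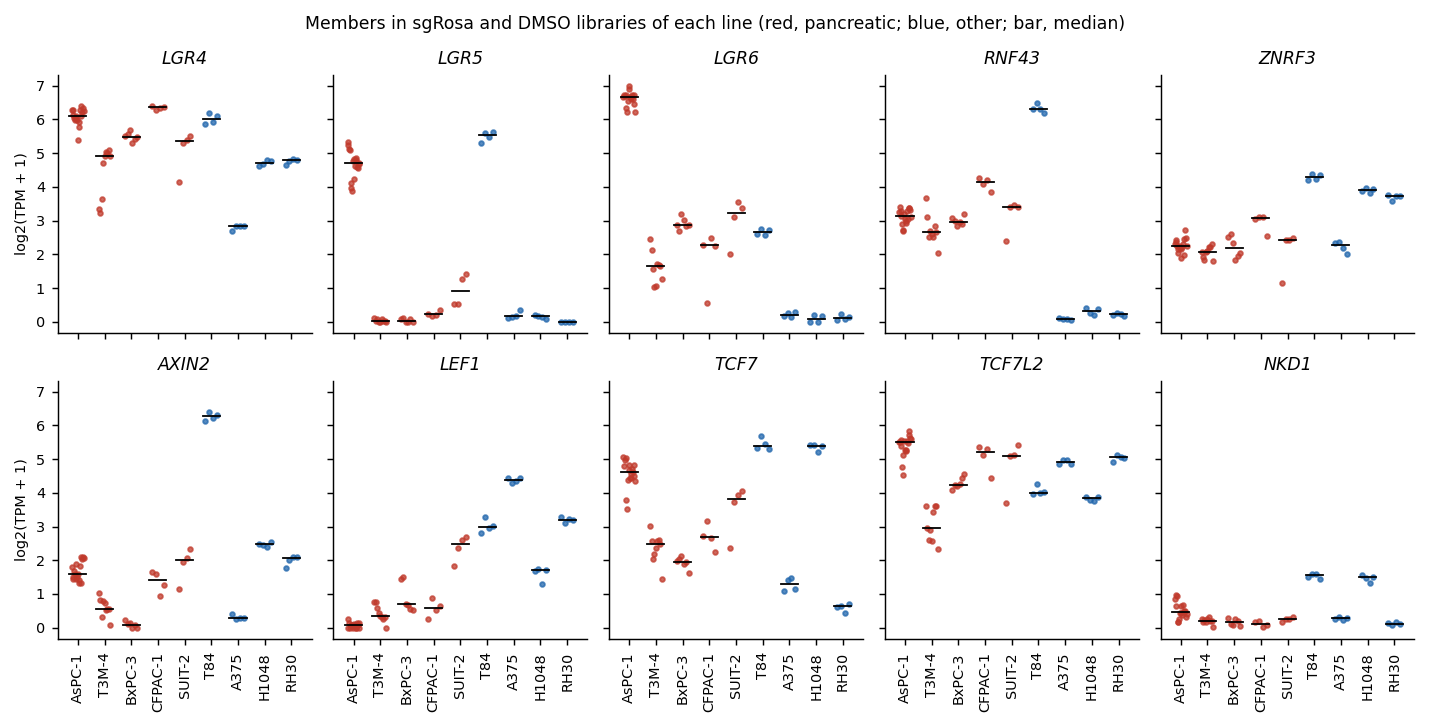
Level of the 10 members in control libraries (sgRosa or DMSO) of the 9 lines, as log2 of TPM + 1, 1 point a library with a bar at the median and pancreatic lines in red. LGR6 stands at a median of 100.1 TPM in AsPC-1 and at 8.43 or less in every other line, and AXIN2 and RNF43 are highest in T84.

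Knockout of KLF5 in AsPC-1 was followed by opposite changes of LGR5 and LGR6. In experiment 1, LGR5 stood at 26.1 and 17.7 TPM in the 2 sgRosa libraries and at 147, 135, 136, 105, 124 and 115 TPM in the 6 sgKLF5 libraries. LGR6 stood at 126 and 119 TPM with sgRosa and at 6.84, 6.74, 7.14, 7.68, 7.19 and 11.8 TPM with sgKLF5. The groups did not overlap for either receptor: LGR5 rose by 2.5 ± 0.15 (log2 change of TPM + 1 ± SE, limma, adjusted p = 1.39e-06) and LGR6 fell by 3.82 ± 0.18 (adjusted p = 2.85e-07). Experiment 3, with 4 libraries a group, gave the same directions. LGR5 was 23.3, 22.8, 25 and 24.6 TPM with sgRosa and 86.8, 87.7, 89.5 and 73.3 TPM with sgKLF5 (1.77 ± 0.10, adjusted p = 1.15e-10), and LGR6 was 97.1, 104, 87.8 and 74.0 TPM against 5.09, 11.3, 21.9 and 18.2 TPM (-2.76 ± 0.26, adjusted p = 1.56e-07). Every sgKLF5 library was again beyond every control. Groups were apart for 36.7% of all genes in experiment 1 and for 32.3% in experiment 3. The rise of LGR5 was larger in experiment 1, by 0.72 ± 0.17 on the log2 scale (adjusted p = 0.0123, where 4.28% of all genes passed the same test), although without sgRosa library 2 of experiment 1 that difference was 0.46 (adjusted p = 0.339). For LGR6 the difference of -1.06 did not pass (adjusted p = 0.124).

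LGR4 also changed in AsPC-1, by less. In experiment 3 it was 83.2, 73.7, 80.8 and 75.9 TPM with sgRosa and 116, 120, 125 and 126 TPM with sgKLF5, without overlap (0.63 ± 0.06, adjusted p = 4.15e-07). In experiment 1 the controls were far apart, at 62.8 and 40.8 TPM, against 54.9 to 101 TPM with sgKLF5, and the difference of 0.65 missed the threshold (adjusted p = 0.0534). The summed level of the 3 receptors, each per transcript length, lay between 178 and 215 TPM with sgRosa and between 168 and 243 TPM with sgKLF5 in experiment 1, and between 175 and 204 against 208 and 236 TPM in experiment 3. The sum therefore overlapped between the groups in experiment 1 and not in experiment 3. The sgKLF5 library with the highest LGR6 level in experiment 1, library 6, also carried KRT5, a basal keratin, at 60.5 TPM, against 0.120 to 1.37 TPM in the other 5, and CDH5, an endothelial cadherin, at 3.11 TPM against 0 to 0.0742 TPM. What else that library holds was not tested, and without it LGR6 fell by 3.93.

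**Figure D2:**
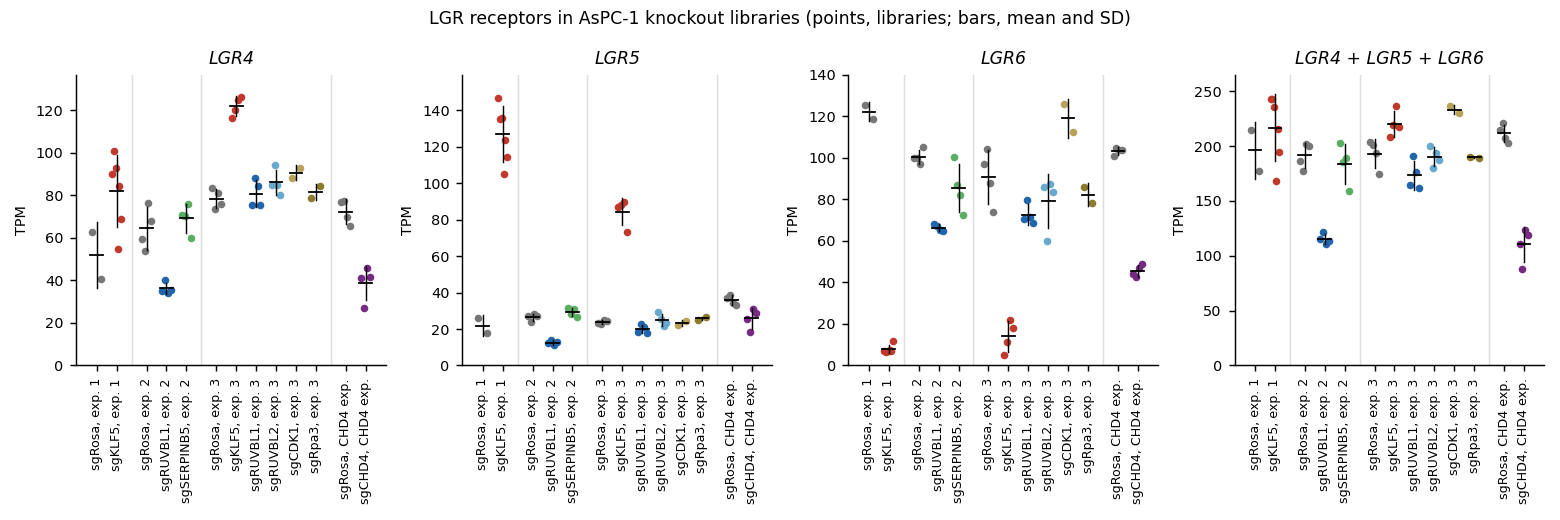
Levels of LGR4, LGR5, LGR6 and their sum in each AsPC-1 knockout library, in TPM, by group and experiment, with bars at the mean and SD. With sgKLF5, LGR5 lies between 73.3 and 147 TPM and LGR6 between 5.09 and 21.9 TPM, against controls of 17.7 to 26.1 TPM and 74.0 to 126 TPM in the same experiments.

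The other members that passed in AsPC-1 with sgKLF5 were lower. Of 8 members tested, 1 rose and 3 fell in experiment 1, where 25.9% of all genes tested passed, and 2 rose and 5 fell in experiment 3, where 27.8% did. RNF43 was 8.25 and 7.33 TPM with sgRosa and 5.10 to 6.06 TPM with sgKLF5 in experiment 1 (-0.46 ± 0.11, adjusted p = 0.0134), and 9.37, 9.37, 8.93 and 7.57 TPM against 3.4, 5.72, 6.49 and 5.05 TPM in experiment 3 (-0.69 ± 0.16, adjusted p = 0.00282). TCF7 was 27.4 and 24.5 TPM against 13.9 to 21.8 TPM in experiment 1 (-0.51 ± 0.15, adjusted p = 0.0314). For both genes the groups were separate in these libraries. In experiment 3 TCF7 was 23.8, 27.4, 21.7 and 19.5 TPM against 10.0, 19.7, 18.8 and 12 TPM, with overlap by 1 library (-0.62 ± 0.20, adjusted p = 0.0266). AXIN2 was between 3.11 and 3.28 TPM with sgRosa and 0.856, 1.64, 1.89 and 2.01 TPM with sgKLF5 in experiment 3 (-0.72 ± 0.14, adjusted p = 0.000683), and its difference of -0.24 in experiment 1 did not pass (adjusted p = 0.379). TCF7L2 split the sgKLF5 libraries of experiment 3, with 22.5 and 23.5 TPM in libraries 1 and 4 and 47.3 and 46.7 TPM in libraries 2 and 3, beside controls of 47.2 to 55.8 TPM (-0.61 ± 0.19, adjusted p = 0.0193). In experiment 1 it was 35.2 to 52.9 TPM with sgKLF5 around controls of 45.5 and 37.7 TPM, with the opposite sign (0.08, adjusted p = 0.742). Some of these calls rested on single libraries. In experiment 1, RNF43 was not called without sgRosa library 1 or 2 (-0.38 and -0.53), nor TCF7 without sgRosa library 1 or 2 or sgKLF5 library 5 or 6 (-0.44 to -0.59). In experiment 3, TCF7 was not called without sgKLF5 library 1 or 4 or sgRosa library 1 or 2 (-0.45 to -0.60), nor TCF7L2 without sgKLF5 library 1 or 4 or sgRosa library 2 (-0.43 to -0.56).

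LGR6 was lower with sgKLF5 in 6 of the 8 comparisons, those of AsPC-1, BxPC-3, CFPAC-1 and SUIT-2, and passed in neither T3M-4 experiment. In BxPC-3 it was 6.37 and 5.5 TPM with sgRosa and 1.59, 1.79, 1.28 and 1.42 TPM with sgKLF5 in experiment 1 (-1.46 ± 0.16, adjusted p = 0.000176; 16.2% of all genes passed). In experiment 2 it was 8.25, 7.11, 6.15 and 6.28 TPM against 3.05, 2.98, 2.49 and 2.91 TPM (-1.04 ± 0.13, adjusted p = 5.81e-06; 34.6% passed). Neither pair of groups overlapped, as was so for 39.5% of all genes in experiment 1 and 40.9% in experiment 2. In CFPAC-1 (16.2% passed) LGR6 was 3.85, 0.472, 4.62 and 3.78 TPM against 0.469, 0.244 and 0.677 TPM, with sgRosa library 2 inside the knockout range (-1.36 ± 0.32, adjusted p = 0.0128, and 0.0557 without sgKLF5 library 2). In SUIT-2 (3.94% passed) it was 3.06, 7.58, 10.7 and 9.28 TPM against 1.1, 1.09, 2.45 and 2.14 TPM (-1.61 ± 0.35, adjusted p = 0.0345). The SUIT-2 groups were separate, as were those of 17.4% of all genes. The call was lost without any 1 of the libraries except sgRosa library 1 (-1.44 to -1.75). Without the 2 libraries of that line that stand apart, LGR6 fell by 2.03 (adjusted p = 0.00237, with 11.7% of genes passing). In T3M-4 the LGR6 differences were 0.15 in experiment 1 and -0.29 in experiment 2 (adjusted p = 0.0961).

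Over all 8 KLF5 comparisons, 56 tests of members gave 8 higher and 14 lower, against 20.6% of all tests called. RNF43, which fell in AsPC-1, rose in T3M-4. In T3M-4 experiment 2 (34.6% passed) RNF43 was 4.74, 6.09, 5.31 and 3.14 TPM with sgRosa and 8.71, 10.2, 8.21 and 8.27 TPM with sgKLF5 (0.78 ± 0.15, adjusted p = 0.000459), and TCF7L2 was 9.73, 11.2, 11.1 and 4.05 TPM against 19.1, 19.4, 17.1 and 18.8 TPM (1.05 ± 0.22, adjusted p = 0.00135). Both sets of sgKLF5 libraries were above all controls, in a comparison where 36.3% of all genes had separate groups. LGR4 was 32, 31.0, 33.1 and 28.9 TPM against 37.5, 36.7, 36.2 and 35.1 TPM, a change of 0.21 ± 0.08 at the threshold (adjusted p = 0.0499) that did not pass without any 1 library except sgRosa library 3 (0.18 to 0.23). In experiment 1 of T3M-4, where 5.72% of genes passed, 0 of 6 members did, while 37.0% passed without library 2, with changes of 0.60 for RNF43 (adjusted p = 0.0377) and 0.94 for TCF7L2 (adjusted p = 0.0305). In that library LGR4 was 2.65 TPM, against 16.7, 25.2 and 26.1 TPM in the others.

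The remaining changes with sgKLF5 came in single lines. LEF1 rose in BxPC-3 experiment 1, from 1.70 and 1.81 TPM to 3.98, 4.56, 3.27 and 5.22 TPM (0.92 ± 0.18, adjusted p = 0.00562, and 0.0694 or 0.0539 without sgRosa library 1 or 2), and in experiment 2, where its mean was under the limit for testing, it went from 0.452 to 0.644 TPM in the controls to 1.31 to 2.80 TPM with sgKLF5. In the same BxPC-3 libraries of experiment 1 the fibroblast genes COL1A1, COL1A2 and DCN summed to 67.7 to 112 TPM with sgKLF5 and to 17.5 and 19.7 TPM with sgRosa, with DCN between 0 and 0.404 TPM, and KRT5 and TP63 summed to 776 to 870 TPM against 2554 and 2569 TPM. The part of these genes in the LEF1 and LGR6 values was not tested. ZNRF3 rose in BxPC-3 experiment 2 (2.55 to 4.04 TPM against 3.99 to 4.5 TPM, 0.38 ± 0.13, adjusted p = 0.0335), with 1 control in the knockout range and no call without sgKLF5 library 2, 3 or 4 or sgRosa library 2, 3 or 4 (0.31 to 0.38). In CFPAC-1, LGR4 fell (76.6 to 83.3 against 57.4, 64.2 and 72.0 TPM, -0.32 ± 0.10, adjusted p = 0.0434), as did TCF7L2 (20.8 to 39.9 against 18.3 to 21.8 TPM, -0.64 ± 0.19, adjusted p = 0.033), the latter with overlap. Neither was called without sgKLF5 library 1 or 2 or sgRosa library 1 or 3, and the first was lost without sgRosa library 4 as well and the second without sgKLF5 library 3 (-0.24 to -0.32 and -0.54 to -0.69). In SUIT-2 RNF43 was 4.21 to 10.1 TPM against 2.72 to 4.61 TPM and did not pass (adjusted p = 0.144), although it did without the libraries that stand apart (-1.23, adjusted p = 0.00442).

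**Figure D3:**
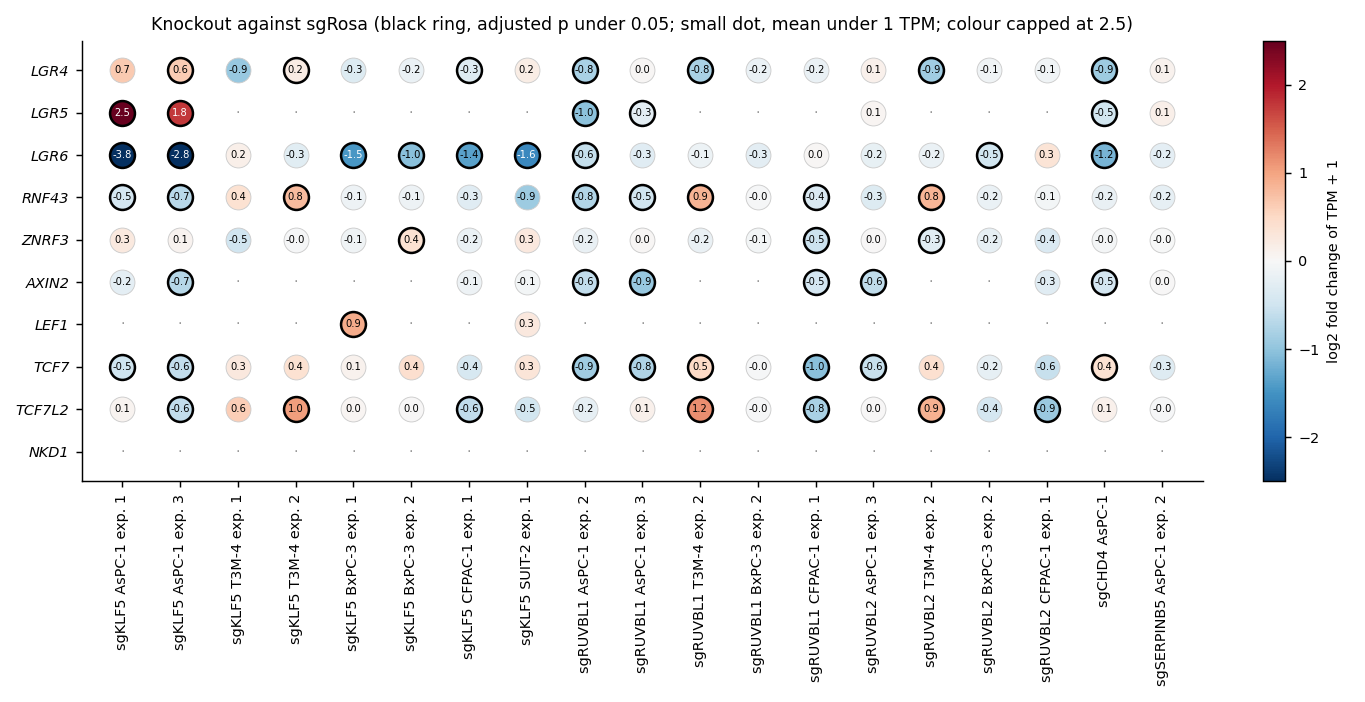
Log2 change of TPM + 1 of each member in 19 knockouts against sgRosa, with a black ring at an adjusted p under 0.05 (limma) and a small dot where the mean was under 1 TPM. LGR6 is lower in 6 of 8 KLF5 comparisons, and RNF43 is lower with sgKLF5 in both AsPC-1 experiments and higher in T3M-4 experiment 2.

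With the RUVBL1 knockout all 3 receptors were lower in AsPC-1 experiment 2, where 6 of 8 members fell and 55.8% of all genes passed. LGR4 was 59.2, 53.9, 76.5 and 67.9 TPM with sgRosa and 35, 40.0, 34.1 and 35.6 TPM with sgRUVBL1 (-0.80 ± 0.10, adjusted p = 5.9e-06). LGR5 was 27.3, 23.7, 28.0 and 27.0 TPM against 12.1, 14.0, 11.4 and 12.9 TPM (-1.02 ± 0.09, adjusted p = 1.22e-07). LGR6 was 97.0 to 105 TPM against 64.6 to 68.3 TPM (-0.59 ± 0.08, adjusted p = 9.85e-06). No group overlapped its control, as was so for 54.3% of all genes. The summed receptor level went from between 178 and 202 TPM to between 111 and 121 TPM. RNF43 fell from 6.67 to 8.79 TPM to 3.22 to 4.6 TPM (-0.76 ± 0.16, adjusted p = 0.000758), AXIN2 from 1.48 to 2.54 TPM to 0.486 to 0.968 TPM (-0.62 ± 0.15, adjusted p = 0.00245) and TCF7 from 20.5 to 25.2 TPM to 10.3 to 12.5 TPM (-0.89 ± 0.13, adjusted p = 2.56e-05).

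In experiment 3 a smaller set fell, 4 of 8 members, with 51.9% of genes passing. LGR6 passed there with neither sgRUVBL1 nor sgRUVBL2. LGR4 was 75.3, 75.3, 87.9 and 84.2 TPM with sgRUVBL1, overlapping its controls (0.04, adjusted p = 0.639), and LGR5 was 17.6, 18.3, 22.6 and 21.0 TPM (-0.26 ± 0.10, adjusted p = 0.0284), a call lost without sgRosa library 3 or 4 or sgRUVBL1 library 1 or 2 (-0.21 to -0.25). Experiment 2 differed from experiment 3 by -0.84 ± 0.12 for LGR4 (adjusted p = 3.95e-05) and -0.76 ± 0.13 for LGR5 (adjusted p = 0.000281), in a test that 18.2% of genes passed. RNF43 again fell (5.14 to 6.91 TPM, -0.49 ± 0.16, adjusted p = 0.0159, and 0.0543 without sgRUVBL1 library 2), as did AXIN2 (1.05, 1.12, 1.53 and 1.07 TPM, -0.95 ± 0.14, adjusted p = 2.69e-05) and TCF7 (12.7 to 13.3 TPM, -0.77 ± 0.20, adjusted p = 0.00353). With sgRUVBL2 in the same experiment (43.2% passed), AXIN2 was 1.81, 1.6, 2.09 and 1.42 TPM (-0.63 ± 0.14, adjusted p = 0.0017). TCF7 was 18.4, 9.07, 16.2 and 18.6 TPM (-0.58 ± 0.20, adjusted p = 0.0259). Both were below every control, in a comparison where 39.8% of all genes had separate groups. TCF7 was lost without sgRosa library 1 or 2 or sgRUVBL2 library 2 (-0.36 to -0.56). All experiment 3 knockouts share the same 4 sgRosa libraries.

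In T3M-4 the RUVBL1 and RUVBL2 knockouts were followed by a lower LGR4 and a higher RNF43 and TCF7L2. LGR4 was 28.9 to 33.1 TPM with sgRosa, 18.6, 15.6 and 18.0 TPM with sgRUVBL1 (-0.81 ± 0.09, adjusted p = 9.16e-07; 60.5% of genes passed) and 15.0, 18.2, 15.1 and 17.0 TPM with sgRUVBL2 (-0.90 ± 0.08, adjusted p = 1.19e-07; 54.5% passed). RNF43 was 3.14 to 6.09 TPM with sgRosa, 8.93, 10.2 and 9.28 TPM with sgRUVBL1 (0.87 ± 0.16, adjusted p = 0.000181) and 7.27, 9.96, 8.97 and 11.1 TPM with sgRUVBL2 (0.84 ± 0.15, adjusted p = 0.000139). Neither gene's knockout libraries overlapped the controls. Groups were apart for 62.4% of all genes with sgRUVBL1 and for 41.0% with sgRUVBL2. TCF7L2 was 4.05 to 11.2 TPM with sgRosa, 20.2, 21.6 and 19.0 TPM with sgRUVBL1 (1.17 ± 0.24, adjusted p = 0.000546) and 11.2, 21.1, 18.1 and 17.6 TPM with sgRUVBL2 (0.89 ± 0.22, adjusted p = 0.00274, and 0.59 without sgRosa library 4). TCF7 rose with sgRUVBL1 by 0.50 ± 0.21 (adjusted p = 0.0451) and ZNRF3 fell with sgRUVBL2 by 0.31 (adjusted p = 0.0354), calls that rested on most single libraries. TCF7 was lost without sgRosa library 4 (0.22) or any sgRUVBL1 library (0.45 to 0.56), and ZNRF3 without sgRosa library 1, 2 or 3 or sgRUVBL2 library 1, 3 or 4 (-0.24 to -0.32).

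In CFPAC-1, 5 members were lower with sgRUVBL1, and in BxPC-3 none passed. In CFPAC-1 (43.8% of genes passed) TCF7 was 5.63, 7.98, 5.29 and 3.79 TPM with sgRosa and 1.91, 2.33, 2.36 and 2.09 TPM with sgRUVBL1 (-1.04 ± 0.16, adjusted p = 0.000163). ZNRF3 was 7.35, 7.58, 7.62 and 4.87 TPM against 3.83, 5.35, 3.83 and 4.44 TPM (-0.54, adjusted p = 0.00649), and RNF43 was 18.2, 15.9, 17.5 and 13.3 TPM against 9.03, 13.9, 11.7 and 14.7 TPM (-0.38, adjusted p = 0.0317). Only TCF7 was separate between groups among these 3, as were 31.2% of all genes. TCF7L2 (-0.81 ± 0.18, adjusted p = 0.002) and AXIN2 (-0.47, adjusted p = 0.03) also fell, AXIN2 not without sgRosa library 1 or 2 or sgRUVBL1 library 1 or 3 (-0.37 to -0.44) and RNF43 not without sgRosa library 1 or 3 or sgRUVBL1 library 1 or 3 (-0.25 to -0.36), in a comparison whose median change over all genes was -0.20. With sgRUVBL2 in CFPAC-1 (12.1% passed) TCF7L2 was 15.2 and 18.0 TPM (-0.93 ± 0.22, adjusted p = 0.0127, and 0.137 or 0.0537 without library 1 or 2). In BxPC-3, 0 of 6 members passed with sgRUVBL1 (16.0% of genes did), and with sgRUVBL2 (9.76% passed) LGR6 was 5.69, 5.05 and 3.56 TPM (-0.47, adjusted p = 0.0361), a call lost without sgRosa library 1 or 2 or sgRUVBL2 library 3 (-0.31 to -0.46).

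Over 5 RUVBL1 comparisons, 3 member tests were higher and 16 lower of 35 (45.6% of all tests called), and over 4 RUVBL2 comparisons 2 were higher and 6 lower of 27 (30.1%). Set directly against sgRUVBL1, sgRUVBL2 gave 0 of 27 member calls in limma, 3 at an unadjusted p under 0.05, where 0.917% of all tests passed (3.71% in AsPC-1, 0.0226% in T3M-4, 0.0323% in BxPC-3 and 0.0235% in CFPAC-1). The CDK1 and RPA3 knockouts gave 0 of 67, 9 at an unadjusted p under 0.05, where 9.83% of all tests passed. That share ran from 0% with sgRPA3 in T3M-4 experiment 1 to 24.6% in experiment 2, and was 5.82% with sgCDK1 in BxPC-3. Each CDK1 or RPA3 group holds 2 libraries, so changes can be missed. The SERPINB5 knockout gave 0 of 8, 2 unadjusted (0.0343%).

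Set directly against each other in AsPC-1 experiment 3 (58.5% of genes passed), sgRUVBL1 differed from sgKLF5 by -0.59 for LGR4, -2.03 for LGR5, 2.45 for LGR6 and 0.74 for TCF7L2 on the log2 scale. LGR6 was likewise higher with sgRUVBL1 than with sgKLF5 in BxPC-3 (0.77; 44.0% passed) and CFPAC-1 (1.39; 30.9% passed), and LGR4 was lower in T3M-4 (-1.03; 45.8% passed). The 4 lines together gave 4 higher and 6 lower of 27, against 44.7% of all tests.

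Against the CDK1 and RPA3 knockouts of the same line, in place of sgRosa, the KLF5 changes in AsPC-1 also passed (34.7% of genes passed): LGR4 0.50, LGR5 1.73, LGR6 -2.89, RNF43 -0.81, AXIN2 -0.66, TCF7 -0.84 and TCF7L2 -0.64. Of these, TCF7L2 was not called without sgKLF5 library 1 or 4 (-0.46 and -0.48). LGR6 was lower by this contrast in BxPC-3 (-1.30; 46.8% passed) and CFPAC-1 (-1.99; 43.7% passed), and RNF43 was higher in T3M-4 (0.62; 28.4% passed). Some calls against sgRosa did not pass by this contrast. In T3M-4 the TCF7L2 difference was 0.39 with sgKLF5 (adjusted p = 0.213) and 0.51 with sgRUVBL1 (adjusted p = 0.101), TCF7L2 in the CDK1 and RPA3 knockouts being itself 0.63 and 0.69 from sgRosa (adjusted p = 0.119 and 0.0719). Likewise LGR4 with sgKLF5 did not pass in T3M-4 (0.10) or CFPAC-1 (-0.19), nor TCF7 with sgRUVBL1 in T3M-4 (0.38). Newly passing with sgKLF5 were LGR4 (-0.24) and TCF7 (0.70) in BxPC-3 and RNF43 (-0.49) and TCF7 (-0.56) in CFPAC-1. LGR4 in BxPC-3 was lost without sgCDK1 library 1, sgKLF5 library 2, 3 or 4 or sgRPA3 library 1 or 2 (-0.21 to -0.25). In CFPAC-1, RNF43 was lost without sgCDK1 library 2 or sgKLF5 library 1 (-0.41 and -0.44). TCF7 there was lost without sgKLF5 library 3 or sgRPA3 library 2 (-0.46 and -0.51). For sgRUVBL1 the same contrast in AsPC-1 (51.2% passed) gave LGR5 -0.30, RNF43 -0.61, AXIN2 -0.88 and TCF7 -0.99. LGR5 was lost without sgCDK1 library 2 or sgRUVBL1 library 1 (-0.26 and -0.25). In T3M-4 (41.8% passed) the contrast gave LGR4 -0.93 and RNF43 0.71, and in BxPC-3 (20.4% passed) LGR6 -0.54. Among the calls in CFPAC-1 (55.4% passed) were TCF7 -1.17, TCF7L2 -1.12 and AXIN2 -0.44. AXIN2 was lost without sgCDK1 library 2, sgRPA3 library 2 or sgRUVBL1 library 1 or 3 (-0.35 to -0.41). The 4 lines gave 1 higher and 11 lower of 27 with sgRUVBL1 (42.3% of all tests called). With sgKLF5 they gave 5 higher and 11 lower of 27 (38.3%). Values without an adjusted p are log2 differences that passed, unless stated otherwise.

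In the AsPC-1 libraries labelled sgCHD4, where 50.0% of all genes passed, 1 of 8 members rose and 4 fell, the receptors among them. LGR6 was 101, 105, 104 and 104 TPM with sgRosa and 43.9, 42.6, 46.9 and 48.8 TPM with sgCHD4 (-1.17 ± 0.05, adjusted p = 1.14e-08). LGR4 was 76.7, 77.4, 69.7 and 65.5 TPM against 41.0, 27.1, 45.6 and 41.7 TPM (-0.90 ± 0.13, adjusted p = 0.000146), and LGR5 was 37.1, 38.9, 34.2 and 33.2 TPM against 25.7, 18.1, 31.1 and 28.6 TPM (-0.48 ± 0.14, adjusted p = 0.0116). All 3 receptors were lower in every sgCHD4 library, in a comparison where 46.7% of all genes had separate groups. The receptor sum went from 203 to 221 TPM to 87.8 to 124 TPM. AXIN2 fell (1.75 to 2.5 against 1.01 to 1.47 TPM, -0.46 ± 0.13, adjusted p = 0.00917) and TCF7 rose (27.0 to 32.3 against 37.2 to 42.2 TPM, 0.37 ± 0.07, adjusted p = 0.000981).

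CB-6644 for 24 h in empty-vector AsPC-1 cells was followed by lower LGR4, LGR5 and AXIN2, and cells with a RUVBL variant had higher levels under the inhibitor. The DMSO libraries, 1 each for empty vector, A62T and dF109, had LGR4 at 67.9, 61.9 and 64.2 TPM and LGR5 at 13.8, 14.6 and 16.5 TPM, and were pooled as the control. With CB-6644 the empty-vector libraries had LGR4 at 41.5, 41.2 and 43.6 TPM (-0.61 ± 0.05, adjusted p = 1.15e-06) and LGR5 at 8.85, 9.14 and 9.79 TPM (-0.63 ± 0.08, adjusted p = 1.92e-05), in a comparison that 64.4% of genes passed. AXIN2 was 2.71, 2.01 and 1.75 TPM in DMSO and 1.14, 1.16 and 1.33 TPM with CB-6644 (-0.50 ± 0.11, adjusted p = 0.00203). These 3 genes were below every DMSO library, in a comparison where 64.0% of all genes had separate groups. RNF43 (-0.36, adjusted p = 0.0142) and LGR6 (92.5, 79.4 and 73.2 against 65.2, 62.7 and 75.3 TPM, -0.26, adjusted p = 0.0365) also passed, LGR6 with overlap. Neither was called without the A62T DMSO library or empty-vector CB-6644 library 1 or 2, nor LGR6 without the empty-vector DMSO library (-0.17 to -0.28 for LGR6 and -0.29 to -0.31 for RNF43).

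The variant cells were then compared with empty-vector cells under CB-6644. LGR4 was 60.1, 57.2 and 59.1 TPM in A62T cells, above every empty-vector library (0.47, adjusted p = 1.52e-05, where 51.1% of genes passed). In dF109 cells it was higher by 0.59 (adjusted p = 4.06e-06, where 47.2% passed). Groups were apart for 64.4% of all genes with A62T and 59.4% with dF109. LGR5 was 11.8, 11.7 and 10.8 TPM in A62T cells (0.28, adjusted p = 0.00871) and 18.2, 17.8 and 17.4 TPM in dF109 cells (0.88, adjusted p = 4.06e-06). That put dF109 above the DMSO libraries, of which the dF109 library was itself the highest. With 1 DMSO library a vector, effects of vector and drug cannot be told apart in AsPC-1. LGR6 (0.46 and 0.50), RNF43 (0.53 and 0.63) and AXIN2 (0.43 and 0.32) were also higher in A62T and dF109 cells than with the empty vector, with adjusted p from 0.000792 to 0.0355. Against DMSO, LGR5 fell in A62T cells (-0.35, adjusted p = 0.0167; 12.7% passed) and rose in dF109 cells (0.24, adjusted p = 0.03; 33.4% passed), the first not without A62T CB-6644 library 1 or 3 (-0.38 and -0.32) and the second not without the A62T or empty-vector DMSO library or dF109 CB-6644 library 1 or 2 (0.19 to 0.24). AXIN2 in dF109 against empty-vector cells was lost without dF109 or empty-vector library 1 or 2 (0.29 to 0.31).

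In T3M-4, LGR4 fell with CB-6644 in all 3 vectors. It was 11.5, 9.22 and 8.28 TPM in the DMSO libraries of empty vector, A62T and dF109, and 5.14, 4.90 and 5.11 TPM with CB-6644 in empty-vector cells (-0.81 ± 0.12, adjusted p = 0.000435; 34.3% of genes passed), and 1 of 6 members passed there. A62T cells had 6.38, 6.23 and 5.86 TPM (-0.57, adjusted p = 0.00666; 50.0% passed) and dF109 cells 6.37, 6.35 and 5.54 TPM (-0.58, adjusted p = 0.00543; 37.6% passed). All treated libraries lay under all DMSO libraries. Groups were apart for 34.8% of all genes in empty-vector, 62.9% in A62T and 54.5% in dF109 cells. Under CB-6644 the LGR4 differences of the variants from the empty vector did not pass (0.24, adjusted p = 0.104, and 0.23, adjusted p = 0.142). RNF43, TCF7 and TCF7L2 were higher in A62T than in empty-vector cells under CB-6644, by 1.01, 0.92 and 1.06 (50.6% passed), and in dF109 cells by 0.80, 0.77 and 0.91 (34.6% passed), as were LGR6 (0.87 and 0.76) and ZNRF3 (0.47 and 0.42). The dF109 differences of these 5 genes were lost without dF109 CB-6644 library 1 or 2 or empty-vector CB-6644 library 2 or 3, and all but that of ZNRF3 without dF109 library 3 (0.28 to 1.00). The single DMSO libraries already differed in that direction: for empty vector, A62T and dF109, RNF43 was 4.70, 11.7 and 7.70 TPM, LGR6 was 1.98, 4.45 and 3.34 TPM and TCF7L2 was 5.11, 11.2 and 6.80 TPM. With 1 DMSO library a vector, an effect of the vector and an effect of the drug in these cells cannot be told apart. Over both lines 6 of 14 tests in empty-vector cells were lower (48.7% of all tests called, 16.2% lower). In variant cells 6 were higher and 3 lower of 28 (33.9% called, 30.4% higher and 3.53% lower). Under CB-6644, 20 of 28 were higher in variant than in empty-vector cells (45.8% called, 28.1% higher). In T3M-4, 41.4% of all genes were higher and 9.21% lower with A62T, and 29.8 and 4.86% with dF109. In AsPC-1 these shares were 18.9 and 32.3% with A62T and 20.9 and 26.3% with dF109. Against DMSO, 90.8 and 91.1% of T3M-4 calls were higher in A62T and dF109 cells, and 35.6 and 35.1% after median-of-ratios scaling.

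**Figure D4:**
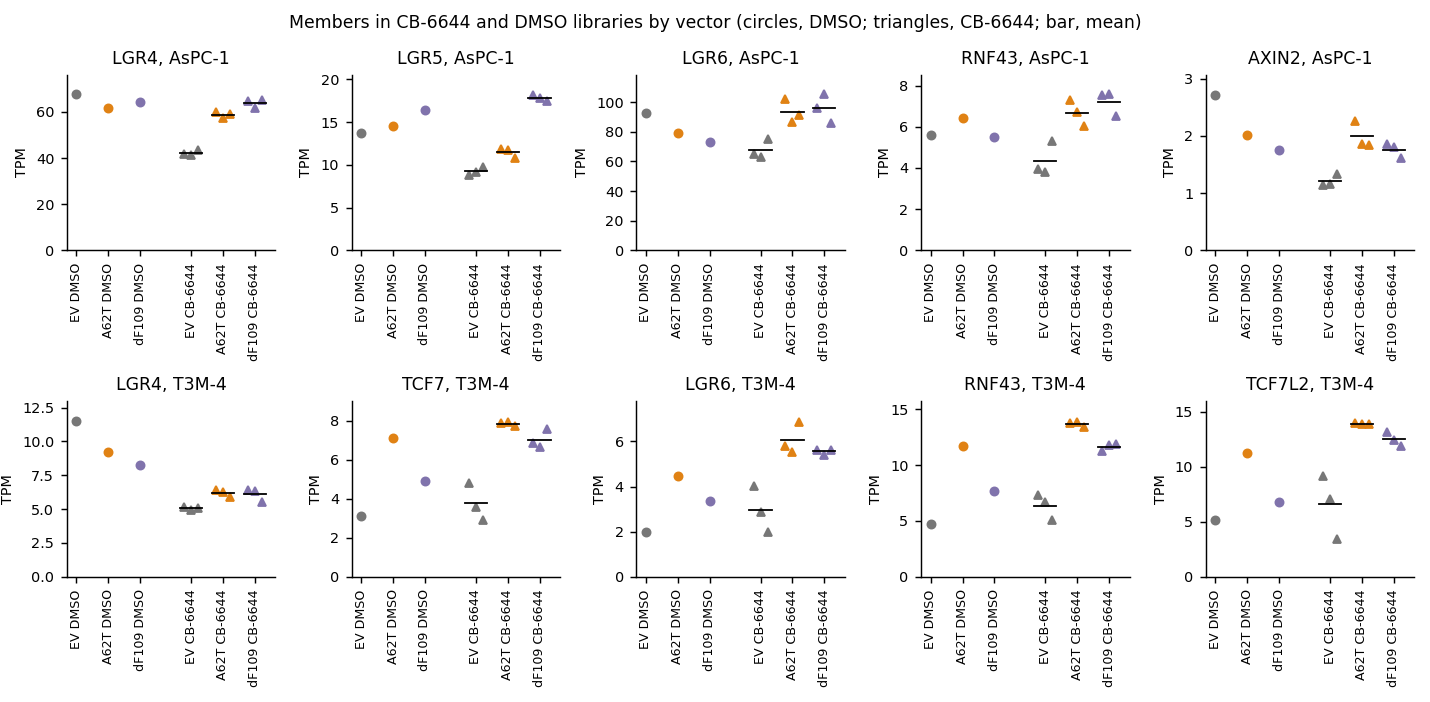
Levels of members in AsPC-1 and T3M-4 cells by vector (empty, A62T of RUVBL1, dF109 of RUVBL2), in DMSO (1 library a vector) or CB-6644 (3 libraries, bar at the mean), in TPM. LGR4 in AsPC-1 is 41.2 to 43.6 TPM with CB-6644 and empty vector and 57.2 to 60.1 TPM with A62T.

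Outside the pancreas CB-6644 changed a large share of all genes, 77.2% of tests over the 4 lines, and 9 member tests were higher and 10 lower of 28. In T84 (71.4% passed) AXIN2 was 69.5, 83.4, 73.9 and 78.4 TPM in DMSO and 44.0, 46.8, 44.0 and 44.0 TPM with CB-6644 (-0.76 ± 0.06, adjusted p = 9.58e-09). TCF7 was 39.6, 50.1, 43.1 and 38.3 TPM against 30.2, 28.9, 28.0 and 26.8 TPM (-0.56 ± 0.07, adjusted p = 5.08e-06), and LEF1 was 6.08, 8.72, 6.85 and 7.16 TPM against 6.11, 5.4, 5.21 and 5.76 TPM (-0.30, adjusted p = 0.0103). AXIN2 and TCF7 were lower in every treated library, as 63.8% of all genes had separate groups, and LEF1 overlapped by 1. NKD1 moved the other way, from 1.85, 2.04, 2.02 and 1.70 TPM to 4.23, 3.65, 3.99 and 3.19 TPM (0.71 ± 0.10, adjusted p = 7.49e-06), and TCF7L2 rose from 14.6 to 18.4 TPM to 20.2 to 22.4 TPM (0.40, adjusted p = 0.000148). LGR5 (0.16, adjusted p = 0.0368) and RNF43 (0.14, adjusted p = 0.0482) passed as higher, with overlap, but their direction turned under median-of-ratios scaling (-0.026 and -0.047), the median of all genes in this comparison being 0.13.

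LGR4 fell in A375, H1048 and RH30, and in T84 it did not pass. In A375 (81.1% of genes passed) it was 5.44, 6.10, 6.15 and 6.13 TPM in DMSO and 3.27, 3.05, 2.82 and 3.57 TPM with CB-6644 (-0.74 ± 0.07, adjusted p = 2.05e-06). In H1048 (77.9% passed) it was 23.6 to 26.9 TPM against 19.2 to 21.0 TPM (-0.31, adjusted p = 0.000139), and in RH30 (77.7% passed) 24.3 to 27.4 TPM against 18.9 to 21.4 TPM (-0.39, adjusted p = 1.26e-05). The groups were apart in all 3 lines, as were those of 75.5% of all genes in A375, 71.3% in H1048 and 71.5% in RH30. In T84 the LGR4 difference was -0.02. NKD1 rose in H1048, from 1.51 to 1.96 TPM to 3.85 to 4.15 TPM (0.85 ± 0.08, adjusted p = 1.21e-06). In A375 it was 0.208, 0.256, 0.167 and 0.217 TPM in DMSO and 1.84, 1.94, 1.74 and 1.69 TPM with CB-6644. NKD1 met the limit for testing in A375 only through its CB-6644 libraries. Its difference of 1.21 there is therefore a description, although it is among the 9 higher calls. LEF1 fell in A375 from 18.7 to 20.8 TPM to 10.8 to 12 TPM (-0.73 ± 0.05, adjusted p = 1.06e-07), and ZNRF3 rose by 0.43 (adjusted p = 0.00056). TCF7L2 fell in A375 (-0.28, adjusted p = 6.78e-05) and H1048 (-0.42, adjusted p = 0.000212) and rose in RH30 (29.4 to 34.2 against 39.7 to 42.9 TPM, 0.37, adjusted p = 8.84e-06).

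**Figure D5:**
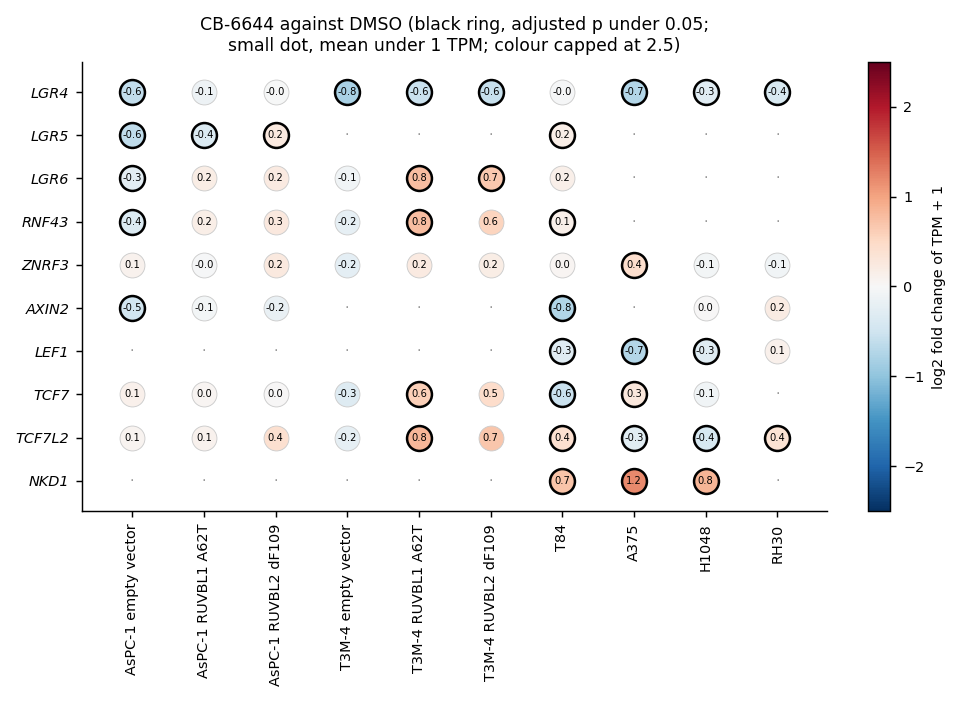
Log2 change of TPM + 1 of each member with CB-6644 against DMSO in 10 comparisons, with a black ring at an adjusted p under 0.05 (limma) and a small dot where the mean was under 1 TPM. LGR4 is lower in both empty-vector lines and in A375, H1048 and RH30, and NKD1 is higher in T84, A375 and H1048. In A375 NKD1 met the limit of 1 TPM only through its CB-6644 libraries.

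The response of T84, the line with the highest AXIN2 and RNF43, was set against that of each other non-pancreatic line by the difference of their log2 changes. Values are given only for members with a mean of at least 1 TPM in both lines of a pair, a restriction chosen after seeing the data. Of 18 such differences 6 were higher and 7 lower in T84, where 53.9% of all genes so tested passed (59.1% against A375, 50.6% against H1048 and 51.9% against RH30). For AXIN2 the T84 change minus that of H1048 and RH30 was -0.78 and -0.97. TCF7 differed in the same direction, by -0.86 from A375 and -0.48 from H1048. LGR4 differed the other way from A375, H1048 and RH30, by 0.71, 0.29 and 0.37, and TCF7L2 by 0.68 from A375 and 0.82 from H1048. With the filter set over all 4 lines at once, 20 of 30 differences were called (53.0% of all tests, and 58.3, 50.2 and 50.5% by line), but that count takes in members near 0 in the other line. The restricted set still holds NKD1 against A375, where its DMSO median was 0.212 TPM.

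The wider pathway was read through lists of 90 ligand, receptor, transducer, inhibitor and target genes, 51 to 67 of them tested in a comparison. With sgKLF5, 15 rose and 7 fell of 54 in AsPC-1 experiment 1 (25.9% of all genes passed), and 9 rose and 10 fell of 53 in experiment 3 (27.8%). In T3M-4, 3 rose and 2 fell of 59 in experiment 1 (5.72%) and 17 rose and 7 fell of 62 in experiment 2 (34.6%). In BxPC-3, 5 rose and 12 fell of 57 in experiment 1 (16.2%) and 11 rose and 7 fell of 57 in experiment 2 (34.6%). In CFPAC-1, 1 rose and 12 fell of 52 (16.2%), and in SUIT-2, 6 rose and 1 fell of 58 (3.94%). With sgRUVBL1, 27 rose and 3 fell of 62 in T3M-4, where 60.5% of all genes passed, 75.9% of those being higher (47.0% after median-of-ratios scaling), and where the list had a median of 0.23 and all genes one of 0.25. In CFPAC-1 0 rose and 36 fell of 52, where 43.8% of all genes passed, 14.9% of those being higher (53.1% after scaling), and the list had a median of -0.38 and all genes one of -0.20. WNT10A, a Wnt ligand, fell in 7 of the 8 KLF5 comparisons, by 1.08 to 2.08, and did not pass in SUIT-2 (-0.70, adjusted p = 0.106). Compared with sgKLF5, sgRUVBL1 gave higher WNT10A in 4 of 4 lines (0.81 to 1.85). Over the KLF5, RUVBL1, RUVBL2, empty-vector and non-pancreatic CB-6644 comparisons, FZD7, a Frizzled receptor, was higher in 13 and WLS, which carries Wnt ligands to the surface, in 12, each with no overlap of libraries, and each was lower in 1. DKK1, a secreted inhibitor of LRP5 and LRP6, was lower in 9 and higher in 4, 3 of them KLF5 knockouts, and TNFRSF19 was lower in 8 and higher in 3, all KLF5 knockouts. DVL1, a Dishevelled, was lower in 9 and higher in 0. FZD4 and the tankyrase TNKS2 were higher in 9 and lower in 0, FZD6 higher in 9 and lower in 2, TNKS higher in 8 and lower in 0, and CCND1 higher in 8 and lower in 5, 3 of them KLF5 knockouts. These counts take calls without overlap of libraries, over 23 comparisons (17 for TNFRSF19). The genes here, WNT10A and MYC among them, were named because they had the most such calls. Their counts are therefore a description and no support. Over these comparisons the groups were apart for 15.5% of all genes (BxPC-3 sgRUVBL2) to 75.5% (A375). MYC, a target of the pathway, was lower in 8, among them CB-6644 in empty-vector AsPC-1 (-0.87) and T3M-4 (-1.39) and in T84 (-1.06), A375 (-0.88), H1048 (-0.75) and RH30 (-1.0). In the A62T and dF109 cells its changes of 0.18 and 0.11 in AsPC-1 and 0.29 and -0.03 in T3M-4 did not pass.

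Over 93 knockout libraries of 10 line-and-experiment sets, each centred on its own sgRosa mean, the gene most like LGR6 was FXYD3 (Pearson r of 0.885 over 10497 genes), followed by HR (0.864), CYP4F12 (0.849), UNC93B1 (0.847) and DGAT1 (0.822). For AXIN2 it was ERBB3 (0.833), followed by TRIB2 (0.805), IRS2 (0.782), B4GALT5 (0.768) and EXOC3 (0.764). AXIN2 was itself under the limit for testing in BxPC-3 and T3M-4, with control medians of 0.0669 and 0.470 TPM. Its r values thus rest in part on levels near 0. The 93 libraries share guides, lines and controls, so the values are a description and carry no test.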

How the data were processed

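The deposited values are TPM per gene, which the authors made by pseudo-aligning reads to hg38 transcripts with kallisto and summarising them to genes; read counts and depth cannot be had from TPM. The study tested counts with DESeq2, which TPM do not allow. Here the deposited TPM were put on a log2 scale after adding 1. Genes averaging under 1 TPM across a line's libraries in an experiment were set aside, and limma 3.58.1 under R 4.3.3 fitted the rest in a single model, moderating variances with a trend. P-values were adjusted by the Benjamini-Hochberg method across every gene tested, with a threshold of 0.05. The 3 DMSO libraries of AsPC-1 or T3M-4 served as 1 control. No test was made across tables. Alternatives were adding 0.1 TPM instead of 1, keeping every gene, requiring an average of 5 TPM, median-of-ratios scaling, only the groups compared, a replicate block, the own-vector DMSO library and each library left out. The procedure was also run on simulated data with independent noise for each gene. Those data hold no outlying libraries and no shift shared by most genes, so they do not test how such features affect calls. Replicate numbers did not pair the libraries in general: in 1 of 36 group pairs with at least 3 shared numbers did every pair of same-numbered libraries correlate over 0.1. Groups came from the labels. The members and gene lists were chosen with earlier results of these data known. Members are always named, and of the pathway lists the 12 genes called in one direction, without overlap of libraries, in the most comparisons.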

Additional observations from a re-analysis of the deposited data

Results flagged for a closer look

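Of 215 sets of 1 member in 1 group of 4 to 10 libraries, 19 held a library far from the others by Dixon's criterion, where chance gives about 5% of sets. Among the receptors these were LGR6 at 11.8 TPM in library 6 of AsPC-1 experiment 1 sgKLF5, LGR5 at 73.3 TPM in library 4 of experiment 3 sgKLF5, LGR6 at 59.8 TPM in library 2 of experiment 3 sgRUVBL2, LGR4 at 24.0 TPM in library 4 of SUIT-2 sgKLF5, LGR6 at 1.39 TPM in library 4 of T3M-4 experiment 2 sgRosa and LGR4 at 5.44 TPM in DMSO library 1 of A375. Among the ligases and feedback genes they were AXIN2 at 1.53 TPM in library 3 of AsPC-1 experiment 3 sgRUVBL1, AXIN2 at 46.8 TPM in CB-6644 library 2 of T84, ZNRF3 at 4.87 TPM in sgRosa library 4 of CFPAC-1, and RNF43 at 4.21 TPM and ZNRF3 at 1.22 TPM in sgRosa library 1 of SUIT-2. Among the factors they were TCF7L2 at 41.2 TPM in library 2 of AsPC-1 experiment 3 sgRUVBL2, TCF7L2 at 25.2 TPM in CB-6644 library 2 of A375, LEF1 at 1.47 TPM and TCF7 at 36.3 TPM in DMSO library 3 of H1048, TCF7 at 7.35 TPM and TCF7L2 at 9.96 TPM in library 2 of SUIT-2 sgKLF5, TCF7 at 2.27 TPM in library 2 of T3M-4 experiment 1 sgKLF5 and TCF7 at 1.71 TPM in library 4 of T3M-4 experiment 2 sgRosa.

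A set of 16 differences between comparisons in which the member was tested on both sides passed their own limma test. In AsPC-1, the LGR5 change with sgKLF5 differed by 0.72 between experiments 1 and 3, and the sgRUVBL1 changes of LGR4 and LGR5 by -0.84 and -0.76 between experiments 2 and 3. The CB-6644 change in T84 minus that in A375, H1048 and RH30 was 0.71, 0.29 and 0.37 for LGR4. It was -0.78 from H1048 and -0.97 from RH30 for AXIN2, -0.86 from A375 and -0.48 from H1048 for TCF7, 0.68 from A375 and 0.82 from H1048 for TCF7L2, 0.43 from A375 and -0.42 from RH30 for LEF1, -0.39 from A375 for ZNRF3 and -0.50 from A375 for NKD1. In A375, NKD1 met the limit for testing only through its CB-6644 libraries.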

How the results depend on the processing

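Read depth cannot be had from TPM, and groups hold 1 to 6 libraries, so small differences cannot be resolved. Over all members and alternatives, 5998 values stayed on their side of the threshold, and those past it kept their direction. Another 113 passed newly, 261 no longer passed and 6 turned. A turn was counted only where the main or the alternative value passed, so values that passed in neither may have changed sign. Under median-of-ratios scaling 5 turned: AXIN2 in H1048 (-0.16), LGR5 (-0.026), RNF43 (-0.047) and ZNRF3 (-0.13) in T84, and LGR4 in CFPAC-1 sgRUVBL1 against the CDK1 and RPA3 knockouts (0.27). With 1 library left out, LGR6 in CFPAC-1 sgRUVBL1 ranged from -0.42 (without sgRosa library 2) to 0.23 (without sgRosa library 3). Median-of-ratios scaling moved the median of all genes by over 0.1 in 21 of 39 comparisons with a control (-0.35 to 0.22) and the share of higher calls by over 10 points in 26 (-56.0 to 38.1 points), as in CFPAC-1 sgRUVBL1, where 14.9% of calls were higher before and 53.1% after scaling. With only the groups compared, member calls went from 8 to 5 for sgRUVBL2, from 0 to 3 for the CDK1 and RPA3 knockouts and from 9 to 4 for CB-6644 in variant cells; with median-of-ratios scaling the CDK1 and RPA3 count was 2. A mean of at least 5 TPM, which tests fewer members, gave 6 in place of 10 for sgRUVBL1 against sgKLF5 and 12 in place of 19 for the non-pancreatic lines, and the own-vector DMSO library gave 5 in place of 9 in variant cells. With 1 library left out, member calls ranged from 19 to 24 for sgKLF5, 17 to 20 for sgRUVBL1, 7 to 10 for sgRUVBL2, 0 to 2 for CDK1 and RPA3, 5 to 6 for sgCHD4, 0 to 1 for sgRUVBL2 against sgRUVBL1, 4 to 9 for CB-6644 in empty-vector cells, 5 to 12 in variant cells (5 without the dF109 DMSO library of T3M-4), 15 to 21 for variant against empty vector, 17 to 21 in non-pancreatic lines and 2 to 4 between experiments. With a replicate block, 13 of 14 counts stayed within 1.5 times: 22 calls for sgKLF5, 18 for sgRUVBL1 and 9 for sgRUVBL2, while the count between experiments went from 3 to 7. Leaving out the 3 libraries that stand apart, a setting chosen after seeing the data, gave 25 calls for sgKLF5. Likewise chosen after seeing the data, testing only genes over 1 TPM in both lines gave 13 in place of 20 for T84 against the other lines, since fewer members are tested. The cause of these changes was not tested unless stated.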

Other observations

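Several members were under a mean of 1 TPM in a line and were therefore not tested. The cases given here were picked from those that passed when no filter on level was applied, and most such tests did not pass. In A375, LGR5 was 0.0732 to 0.265 TPM in DMSO and 1.58 to 1.95 TPM with CB-6644, and RNF43 and AXIN2 were also higher when no filter on level was applied (0.29 and 0.26 on the log2 scale). In H1048 the LGR5 difference without a filter was 0.65 and that of RNF43 0.45, and in RH30 that of RNF43 was 0.41. In T3M-4, AXIN2 differed from sgRosa by 0.52 with sgRUVBL1 and by 0.73 with sgRUVBL2, and LEF1 by 0.59 and 0.46, all without a filter (adjusted p from 0.000263 to 0.0113). With the filter, 60.5 and 54.5% of all genes passed in these T3M-4 comparisons, with a median change of 0.25 and 0.19. NKD1 differed by -0.40 with sgCHD4 in AsPC-1 (adjusted p = 0.00407). These genes are at levels of about 1 TPM or less, where the added 1 TPM shrinks any change.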
